A study of Mus musculus with 2 samples.

Results

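The miR-34 family and the miR-192, miR-194 and miR-215 group were followed in exosomes of murine pancreatic cells. The 8 members were chosen by name. They are mmu-miR-34a-5p, mmu-miR-34b-5p, mmu-miR-34b-3p, mmu-miR-34c-5p, mmu-miR-34c-3p, mmu-miR-192-5p, mmu-miR-194-5p and mmu-miR-215-5p, out of 1881 mouse miRNAs on the array, and are written without the prefix mmu for mouse from here on. Each is read by 2 probes of different length.

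The study asked whether exosomes of pancreatic cancer cells cause insulin resistance in muscle cells, and measured their miRNAs as 1 step, with exosomes of ductal epithelial cells as the negative control. Exosomes are small vesicles that cells shed, and they were collected from culture supernatants by differential centrifugation. RNA of each preparation was put on an Agilent mouse miRNA array with the dye Cy3. There was 1 array for KPC-exosomes and 1 for MPDC-exosomes, both on the same slide.

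KPC cells are a line grown from pancreatic tumour tissue of mice whose genotype includes the allele Trp53 LSL-R172H/+ and the transgene Pdx1-Cre. An LSL allele carries a stop cassette and stays silent until Cre recombinase removes it, and the Pdx1 promoter drives Cre in the pancreatic lineage. Trp53 encodes p53, and R172H is a missense change in its DNA-binding domain. Whether the line still holds a wild-type Trp53 allele was not given in the sources used here. MPDC cells are a purchased murine pancreatic ductal epithelial line whose Trp53 genotype was not given either. KPC cells were kept in RPMI-1640 with 20% fetal bovine serum and MPDC cells in DMEM with 10%, so that line, genotype and medium cannot be told apart here. In bulk RNA of vesicles, fewer vesicles with a miRNA and less of it per vesicle cannot be told apart either.

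p53 is a transcription factor that is activated by DNA damage and by oncogenes, and it arrests the cell cycle or starts apoptosis. Part of this response runs through miRNAs, which pair by their seed, bases 2 to 8 from the 5′ end, with messenger RNAs and repress them. The Mir34a gene and the shared transcript of Mir34b and Mir34c are direct p53 targets, and their products repress cyclin-dependent kinases, Met and Bcl2. The transcript of Mir194-1 with Mir215 and that of Mir192 with Mir194-2 are also induced by p53, and they are known besides as epithelial miRNAs of liver, gut and kidney that depend on hepatocyte nuclear factors.

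The mature sequences show which members can pair with the same target sites. They are RefSeq sequences of the table built on GRCm38.p6, which held 7 of the 8 members, all but miR-34c-5p. They are written 5′ to 3′ with the seed in capitals.
miR-34a-5p: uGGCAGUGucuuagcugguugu
miR-34b-5p: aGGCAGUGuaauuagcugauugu
miR-34b-3p: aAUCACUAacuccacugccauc
miR-34c-3p: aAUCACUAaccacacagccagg
miR-192-5p: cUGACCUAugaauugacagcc
miR-215-5p: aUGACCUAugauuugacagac
miR-194-5p: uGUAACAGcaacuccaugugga
These members fall into 4 seeds. The seed GGCAGUG of miR-34a-5p and miR-34b-5p was held by 4 of the 1679 mature sequences in the table, the others being miR-449a-5p and miR-449c-5p. As miR-34c-5p and miR-449b were not in the table, their seeds could not be read from it. The 3p arms of Mir34b and Mir34c shared AUCACUA, which was in no other sequence of the table. miR-192-5p and miR-215-5p shared UGACCUA, also in no other sequence, and were identical at 18 of 21 bases. GUAACAG was found in miR-194-5p alone.

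In mm9, the build of the probe annotation, the miR-34a-5p probe lies on chromosome 4 from 149442585 to 149442603. The miR-34c-5p probe lies on chromosome 9 from 50911155 to 50911173, close to that of miR-34c-3p at 50911193 to 50911205. The miR-192-5p probe lies on chromosome 19 from 6264860 to 6264877. For miR-194-5p the files give a position beside it on chromosome 19, from 6264664 to 6264679, and another on chromosome 1, from 187137210 to 187137225. The latter is next to the miR-215-5p probe at 187137493 to 187137509. The mature miR-194-5p can thus come from either cluster, and its probes cannot tell them apart. The probes of miR-34b have no position in the files. By the RefSeq genes of GRCm38.p6, Mir34b and Mir34c lie within Btg4 and Hoatz, Mir194-1 and Mir215 within Iars2, and Mir34a, Mir192 and Mir194-2 in no other gene.

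All values are background-subtracted intensities in arbitrary units. The signal of a miRNA is the sum over its probes whose total exceeded 3 times the scanner's error of that total, and a miRNA with no such probe is called not detected. The error given with ± is the scanner's, computed from the spots of 1 array. It covers neither cultures nor preparations, and with 1 array per group no SD, test or p-value is given. On this scale 772 miRNAs (41% of 1881) were detected in KPC-exosomes and 1031 (54.8%) in MPDC-exosomes, with lowest detected signals of 1.41 and 1.51, and no miRNA spot was saturated. Over the 726 miRNAs with a signal on each array, the median log2 difference (KPC-exosomes minus MPDC-exosomes) was -1.37 before normalization and 0.53 after the quantile normalization that matches the deposited values. The 4 spike-in controls differed by -0.31 to 0.38 before normalization, with a mean of 0.03. Each difference below is therefore given on both scales.

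The members split by family. miR-192-5p and miR-194-5p were brighter in KPC-exosomes, whereas miR-34a-5p, miR-34b-5p, miR-34c-5p and miR-34c-3p were brighter in MPDC-exosomes. miR-34b-3p and miR-215-5p were detected in neither. By the call rule of at least 2-fold after quantile normalization with detection on at least 1 array, 2 members were higher in KPC-exosomes, beside 31.5% of the 1077 miRNAs detected on at least 1 array, and 4 were lower, beside 42.7%. Both kinds of call are common here, so the counts alone do not set the members apart. Signal on each array was found for 3 members (67.4% of the 1077), on the MPDC array alone for 3 (28.3%) and on the KPC array alone for 0 (4.27%). The median difference of the former 3 was 3.69 after and 1.99 before normalization, beside 0.53 and -1.37 for all miRNAs. Without normalization, and with undetected signals at the bound explained below, 2 members were higher (10.1% of the 1077) and 4 lower (64.8%).

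**Figure D1:**
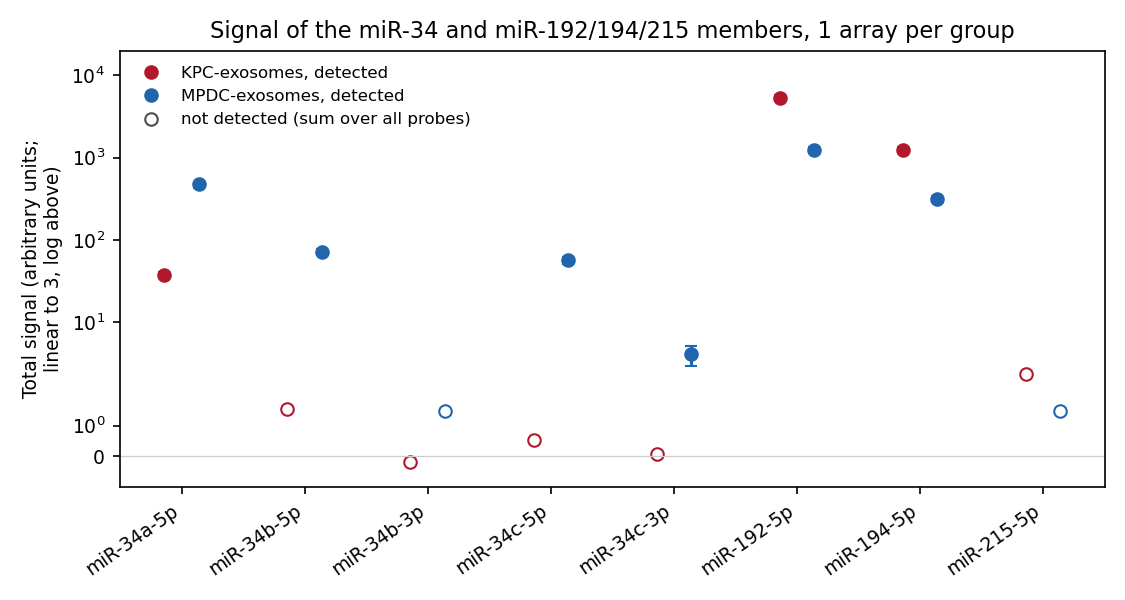
Signal of the 8 members on each array in arbitrary units, with red points for KPC-exosomes and blue for MPDC-exosomes; the axis is linear up to 3 and logarithmic above, and bars are the scanner error. Filled points were detected and open points, which show the sum over all probes, were not. The blue points of miR-34a-5p, miR-34b-5p, miR-34c-5p and miR-34c-3p lie above the red, and the red points of miR-192-5p and miR-194-5p lie above the blue.

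miR-34a-5p is the most broadly expressed member of its family and the p53-induced miRNA studied most. It read 37.7 ± 3.34 in KPC-exosomes against 472 ± 39.2 in MPDC-exosomes, with both probes detected on both arrays. The KPC-exosome signal was 12.5-fold lower before normalization, a log2 difference of -3.65 with a scanner error of 0.17, and 3.37-fold lower after it, a difference of -1.75. Both probes gave a difference of similar size. The probe of 19 bases read 8.27 ± 1.25 against 91.7 ± 9.23, a difference of -3.47 before normalization. The probe of 20 bases read 29.5 ± 3.1 against 380 ± 38.1, a difference of -3.69. The 15 spots of the longer probe ranged from 93.3 to 118 in KPC-exosomes and from 1270 to 1467 in MPDC-exosomes, with no overlap. Of the 726 miRNAs above, 91 had a more negative difference than miR-34a-5p before normalization and 99 after it. The difference thus lay towards the lower end of all miRNAs on both scales, but many miRNAs lay below it.

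miR-34b-5p and miR-34c-5p are cut from 1 transcript, which is known chiefly from lung, testis and other ciliated tissue. miR-34b-5p was not detected in KPC-exosomes, where the sum over both probes was 1.56, and had a signal of 70.9 ± 5.64 over both probes in MPDC-exosomes. Taken against the lowest detectable signal of the KPC array, or its own reading where that was higher, it was at least 45.5-fold lower in KPC-exosomes before normalization and at least 7.82-fold lower after it. In the spots of its longer probe the arrays were far apart, with 14 spots from -0.385 to 6.23 in KPC-exosomes and 14 from 155 to 198 in MPDC-exosomes.

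The values of miR-34c-5p were close to this pattern. It was not detected in KPC-exosomes, with a sum of 0.537, and its signal in MPDC-exosomes was 56 ± 5.22 over both probes. At the same kind of bound it was 39.8-fold lower before and 6.56-fold lower after normalization. The spots of its longer probe, 15 on each array, lay between 0.533 and 4.78 in KPC-exosomes and between 156 and 191 in MPDC-exosomes. With 28.3% of the 1077 miRNAs in the same state, a miRNA missing from KPC-exosomes was common on these arrays.

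The 3p arms of the same transcript, the strands that are usually degraded, were near the background. miR-34c-3p was not detected in KPC-exosomes (sum 0.0855) and reached 4.06 ± 1.08 in MPDC-exosomes by its longer probe alone, its shorter probe reading 2.21 ± 1.02. At the bound it was 2.89-fold lower in KPC-exosomes before normalization. Its probes there had an error of 0.929 and count as undetected up to 3 errors, so the true fold can be smaller. The count of 4 members lower without normalization includes this value. After quantile normalization no bound could be given, because its value in MPDC-exosomes fell below the lowest detected value of the KPC array. The spots of its longer probe nonetheless lay apart, from -3.42 to 3.86 in KPC-exosomes and from 10.5 to 21.3 in MPDC-exosomes. miR-34b-3p was below detection on both arrays, with sums of -0.193 and 1.47. The call of miR-34c-3p is therefore the weakest of the 4, and with undetected signals at their bound 3 members were lower after normalization, beside 24.6% of all 1077 miRNAs.

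**Figure D2:**
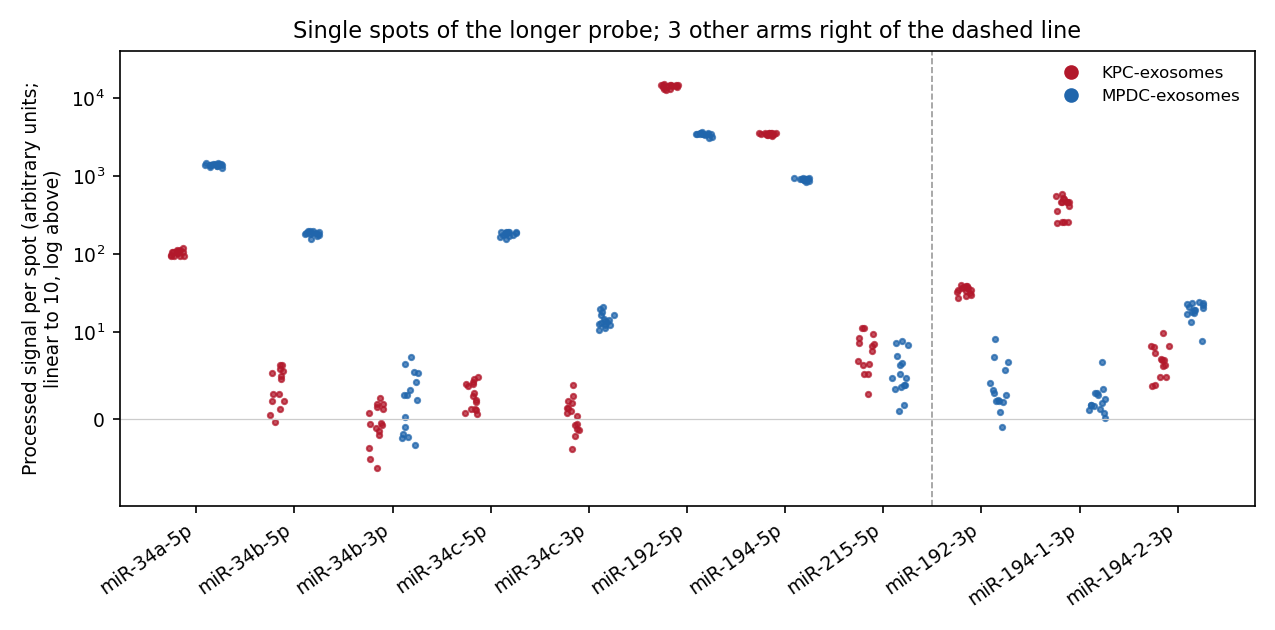
Processed signal of each single spot of the longer probe, in arbitrary units, for the 8 members and, right of the dashed line, 3 other arms of the same hairpins; red is KPC-exosomes, blue is MPDC-exosomes, and the axis is linear up to 10 and logarithmic above. Spots are technical repeats within 1 array. The red and blue spots do not overlap for the 4 miR-34 arms detected in MPDC-exosomes, for miR-192-5p or for miR-194-5p, and they overlap for miR-34b-3p and miR-215-5p.

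miR-192-5p, which represses Zeb2 and other drivers of mesenchymal change, ran the other way. It read 5367 ± 422 in KPC-exosomes against 1240 ± 99 in MPDC-exosomes, over both probes on each array. The KPC-exosome signal was 4.33-fold higher before normalization, a log2 difference of 2.11 with a scanner error of 0.16, and 18.2-fold higher after it, a difference of 4.19. The larger value after normalization goes with the shift of the whole array, since the median over the 726 miRNAs moved from -1.37 to 0.53. The probe of 18 bases read 1388 ± 139 against 297 ± 29.7, and that of 19 bases 3979 ± 398 against 944 ± 94.4, differences of 2.23 and 2.08 before normalization. The 15 spots of the longer probe in KPC-exosomes, 12418 to 14857, all exceeded the 14 in MPDC-exosomes, 3093 to 3617. Few miRNAs had a more positive difference, 32 of 726 before normalization and 62 after it.

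miR-194-5p is made from the same transcripts as miR-192 and miR-215 but has another seed. It read 1251 ± 102 in KPC-exosomes and 315 ± 25.8 in MPDC-exosomes. This was 3.97-fold higher in KPC-exosomes before normalization and 12.9-fold higher after it, log2 differences of 1.99 and 3.69 with a scanner error of 0.17. The shorter and longer probes gave 2.05 and 1.97 before normalization, and the spots of the longer probe were 3239 to 3558 in KPC-exosomes and 846 to 944 in MPDC-exosomes, 14 on each array. A more positive difference was found for 36 of the 726 miRNAs before and 80 after normalization. The difference of miR-192-5p exceeded that of miR-194-5p by 0.12 before normalization, less than the scanner error of 0.23 of that gap, and by 0.49 after it.

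miR-215-5p carries the seed of miR-192-5p but was not detected on either array. Its sums were 2.71 in KPC-exosomes and 1.47 in MPDC-exosomes, and its longer probe read 2.19 ± 0.955 and 1.44 ± 1.01. The spots of that probe overlapped, from 2.92 to 11.4 in KPC-exosomes and from 0.886 to 8.97 in MPDC-exosomes. The longest probes of both miRNAs are shown because they differ little, with the differing bases in capitals, 5′ to 3′ as in the files.
miR-192-5p probe: gGctgtcaaTtcataggtc
miR-215-5p probe: gTctgtcaaAtcataggt
Over the 18 aligned bases they differ at 2, G2T and T10A, counted from the 5′ end of the probe with the base of the miR-192-5p probe first. The miR-215-5p probe thus stayed near the background on the array where the miR-192-5p probe read 3979 ± 398.

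Since any linear scaling moves all differences of an array pair alike, the gap between members does not depend on it. Before normalization the difference of miR-192-5p exceeded that of miR-34a-5p by 5.76 on the log2 scale, with a scanner error of 0.24, and after quantile normalization by 5.94, that is 54.1-fold and 61.4-fold. For miR-194-5p the gap to miR-34a-5p was 5.63 before and 5.45 after normalization, with the same error. With miR-34b-5p and miR-34c-5p at their bounds, miR-192-5p exceeded them by 7.62 and 7.43 before and by 7.15 and 6.90 after normalization. No scanner error was available for these gaps to miR-34b-5p and miR-34c-5p. miR-192-5p and miR-194-5p stood apart from miR-34a-5p by more than the scanner error on both scales. Whether they would do so in other preparations cannot be read from 1 array each.

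**Figure D3:**
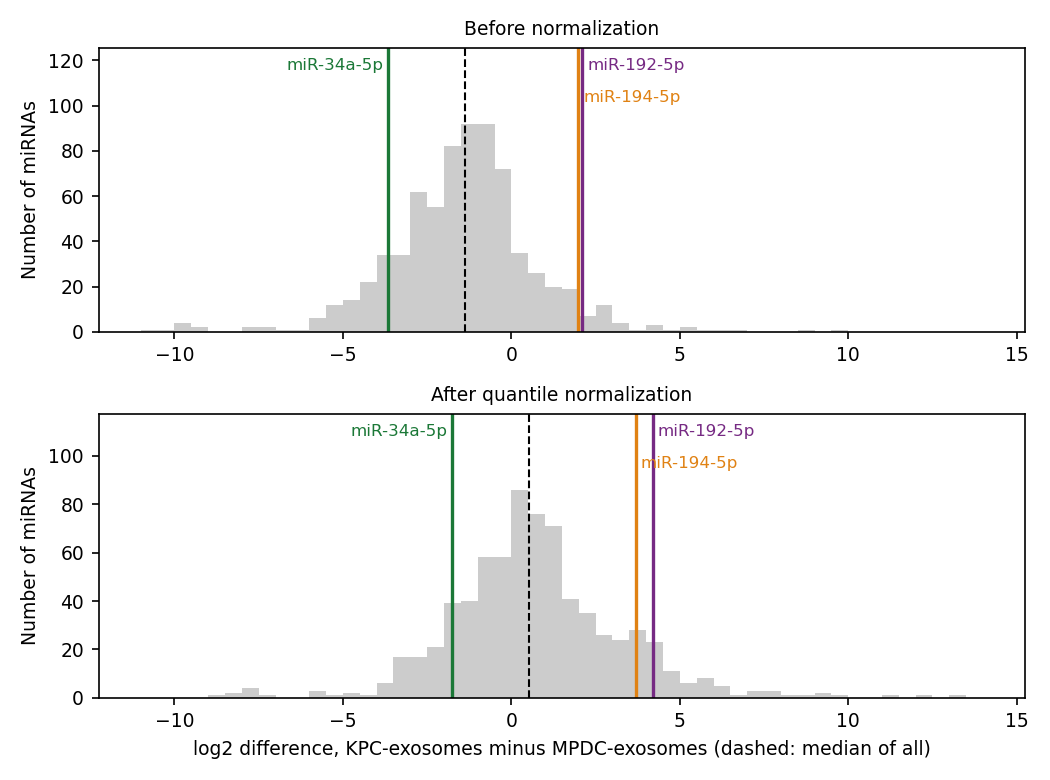
Log2 difference between KPC-exosomes and MPDC-exosomes of 726 miRNAs, those with a signal on each array, as the number of miRNAs in each bin, before normalization (top) and after quantile normalization (bottom). Coloured lines mark miR-34a-5p, miR-194-5p and miR-192-5p and the dashed line the median of all, at -1.37 and 0.53. miR-34a-5p lies left of the median and both others right of it in each panel.

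Across 7 ways of scaling the arrays, no normalization and the spike-in controls among them, the difference of miR-34a-5p ran from -3.67 to -1.75, that of miR-192-5p from 2.09 to 4.19 and that of miR-194-5p from 1.96 to 3.81. None of these changed sign, although the median over the 726 miRNAs moved from -1.40 to 0.53. Relative to that median the ranges were narrow. miR-34a-5p lay -2.28 to -2.03 from it, miR-192-5p 3.49 to 3.97 and miR-194-5p 3.17 to 3.66. The bounds of miR-34b-5p, -5.53 to -2.97, and of miR-34c-5p, -5.34 to -2.71, lay past 2-fold under all 7. For miR-34c-3p only 3 of the 7 gave a bound, from -1.56 to -0.88. Another background correction, normexp with an offset of 50 and quantile normalization, kept the directions but left miR-34b-5p (-0.85), miR-34c-5p (-0.72) and miR-34c-3p (-0.10) under 2-fold, with miR-34a-5p at -1.34.

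**Figure D4:**
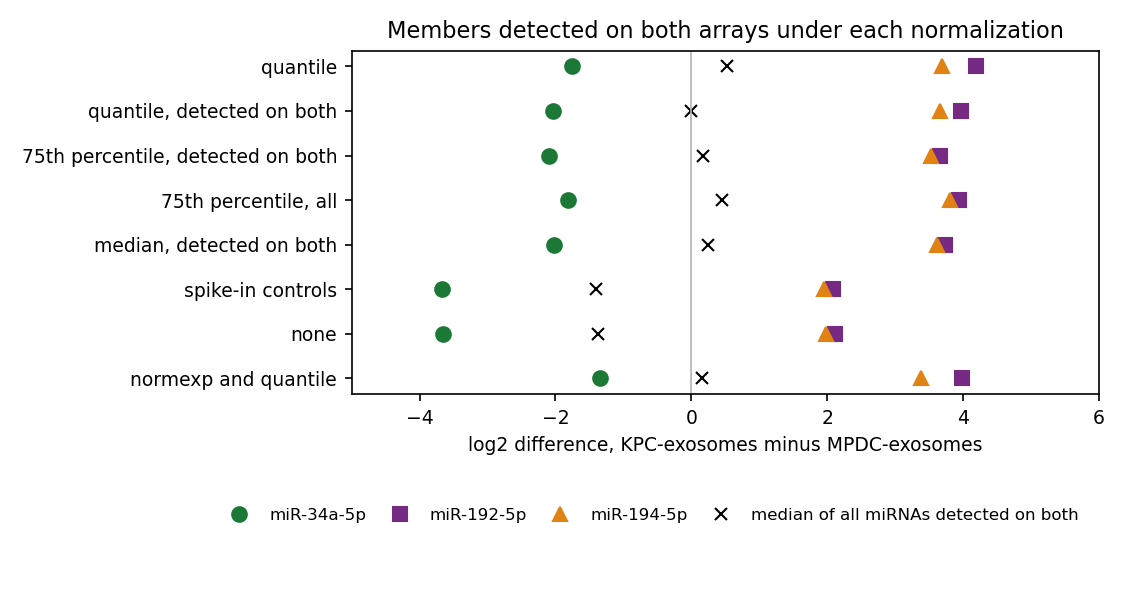
Log2 difference between KPC-exosomes and MPDC-exosomes of the 3 members detected on both arrays (circle, miR-34a-5p; square, miR-192-5p; triangle, miR-194-5p) and the median over the 726 miRNAs (cross), by way of normalization; the lowest row also uses another background correction. The circles stay left of the crosses and the squares and triangles right of them in every row.

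The 3p arms of the Mir192 and Mir194 hairpins, unlike miR-194-5p, differ between the clusters. miR-192-3p was found in KPC-exosomes alone, at 9.85 ± 1.36 by 1 of its 2 probes. With MPDC-exosomes at the bound it was 6.53-fold higher before normalization. That probe read 0.982 in MPDC-exosomes, under the lowest detected signal there. It thus had the direction of miR-192-5p. miR-194-1-3p, from the hairpin next to Mir215, read 119 ± 12.3 in KPC-exosomes and was not detected in MPDC-exosomes, and miR-194-2-3p, from the hairpin next to Mir192, read 5.35 ± 1.14 in MPDC-exosomes and was not detected in KPC-exosomes. The arms of both Mir194 hairpins thus pointed in opposite directions.

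The value of miR-194-1-3p rests on a single probe. Its shorter probe, by 1 base, read -0.389 ± 0.928 on the same array. The spots of the longer probe ran from 248 to 585 in KPC-exosomes, a coefficient of variation of 27.5%, where the 224 probes within 2-fold of its total on that array had a median of 6.73% and it alone reached 27.5%. miR-194-2-3p also rests on 1 of 2 probes, and its spots overlapped between the arrays, with 3.75 to 9.96 in KPC-exosomes and 9.04 to 24.5 in MPDC-exosomes. At the bound it was 2.85-fold lower in KPC-exosomes before normalization, and after it no bound could be given. miR-34a-3p and miR-215-3p were detected on neither array.

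The miR-449 family shares the seed of the miR-34 5p arms and marks ciliated cells and testis. miR-449a-5p was detected in MPDC-exosomes alone, at 9 ± 1.34 by 1 of 2 probes. At the bound it was 6.4-fold lower in KPC-exosomes before normalization, and after it no bound could be given. miR-449b and miR-449c-5p were detected on neither array. miR-449a-5p, miR-34b-5p and miR-34c-5p were detected in MPDC-exosomes alone, as were 28.3% of the 1077 miRNAs, so that their direction follows from where they were detected. Of this group only miR-34a-5p had a signal on each array, and it was brighter in MPDC-exosomes.

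Other miRNAs linked to p53 did not follow the split of the members. The list of miRNAs whose transcription or processing p53 is known to promote shares 5 of its 11 with the epithelial markers and 2 with the mesenchymal markers given below. Of the 11, 9 had a signal on each array and 2 in MPDC-exosomes alone. After quantile normalization 8 were at least 2-fold lower in KPC-exosomes (42.7% of the 1077 miRNAs were), 1 was higher (31.5%) and miR-141-3p (-0.39) and miR-429-3p (-0.66) were neither. With undetected signals at their bound 6 of the 11 were lower (24.6% of the 1077), the calls of miR-143-3p and miR-145a-5p resting on the value given to undetected signals. The median of the 9 was -1.47 after and -3.02 before normalization, beside 0.53 and -1.37 for all miRNAs. The higher miRNA was miR-22-3p, which targets Cdkn1a, at 1016 ± 90 and 1529 ± 135, so that its difference was 1.01 after but -0.59 before normalization.

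Within this list the proapoptotic miR-15a-5p and miR-16-5p, which target Bcl2, had differences of -1.51 and -1.35 after normalization and -3.04 and -3.02 before it. miR-107-3p, which targets Cdk6, had -1.47 and -2.97. miR-143-3p and miR-145a-5p, whose processing p53 aids, were detected in MPDC-exosomes alone, at 16 ± 1.82 and 7.79 ± 1.53. The lowest value of the list was that of miR-200c-3p, which keeps cells epithelial by repressing Zeb1 and Zeb2. It read 4.58 ± 1.04 in KPC-exosomes, by 1 of its 2 probes, and 991 ± 83.4 in MPDC-exosomes, by both. The differences were -5.99 after and -7.76 before normalization, with a scanner error of 0.35. Its sum over both probes in KPC-exosomes was 6.52. Its relatives miR-200a-3p and miR-200b-3p had -1.47 and -1.72 after normalization. Among the members and the 11 miRNAs of this list, miR-192-5p and miR-194-5p were the only ones higher in KPC-exosomes on both scales.

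Of the 6 members of the miR-17 to miR-92a cluster, which promotes proliferation and which p53 is known to repress, all were detected on both arrays. After normalization 4 were lower in KPC-exosomes, a call made for 42.7% of the 1077 miRNAs, namely miR-17-5p (-1.97), miR-18a-5p (-1.34), miR-19a-3p (-2.14) and miR-19b-3p (-1.21), while miR-20a-5p (-0.61) and miR-92a-3p (-0.75) were under 2-fold, and none was higher. Their median was -1.27 after and -3.38 before normalization. Thus miRNAs known to be promoted and miRNAs known to be repressed by p53 were both lower on the median than all miRNAs.

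miRNAs that act on the Trp53 messenger RNA differed among themselves. miR-125b-5p, a direct repressor of p53, had 4351 ± 391 against 645 ± 58.5 units, KPC-exosomes first, and was higher in KPC-exosomes on both scales (4.77 after, 2.75 before normalization). miR-30d-5p was higher after normalization (1.49) and not before it (-0.26), and miR-25-3p had -0.85 after and -2.66 before. miR-504-5p was detected on neither array.

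**Figure D5:**
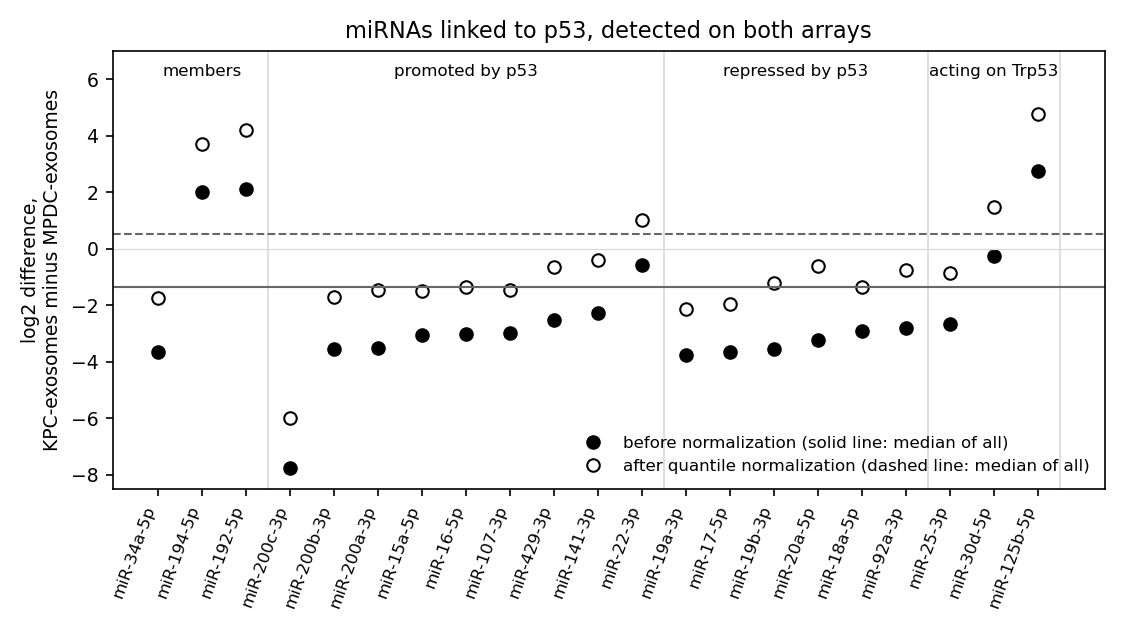
Log2 difference between KPC-exosomes and MPDC-exosomes of the miRNAs linked to p53 that were detected on both arrays, before (filled) and after (open) quantile normalization, with the median of all miRNAs as a solid and a dashed line. miR-194-5p, miR-192-5p and miR-125b-5p lie above 0 on both scales, and miR-200c-3p lies lowest.

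The miRNAs nearest to the members in signal on both arrays were found by the distance of the unnormalized log2 signals over the 2 arrays, among the 726 detected on both. For miR-34a-5p they were miR-872-5p (distance 0.24, signals 33.7 and 418 in KPC-exosomes and MPDC-exosomes) and miR-6934-5p (0.31, 30.4 and 477). For miR-194-5p they were let-7d-5p (0.29, 1259 and 257) and miR-483-5p (0.34, 1070 and 265). miR-192-5p had no neighbour as close, the nearest being miR-6538 (0.92, 3038 and 1659) and miR-188-5p (0.95, 2788 and 1165). With 2 arrays this likeness is a description of levels only.

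Markers of other cell types also differed between the arrays, and their part in the members' differences was not tested. All 7 epithelial miRNAs of the list were detected in MPDC-exosomes and 5 in KPC-exosomes. Their summed signals before normalization were 1781 and 98.8, beside 1406240 and 429230 for all miRNAs. miR-200c-3p alone gave 991 of the 1781. After quantile normalization 5 of the 7 were lower in KPC-exosomes, beside 42.7% of the 1077 miRNAs, and 4 with undetected signals at their bound, beside 24.6%. The 5 mesenchymal miRNAs were detected in MPDC-exosomes alone (summed signal 226), as were 28.3% of the 1077 miRNAs detected on at least 1 array. With undetected signals at their bound, 3 of the 5 were lower in KPC-exosomes after normalization, beside 24.6% of the 1077. The liver miRNA miR-122-5p was also detected in MPDC-exosomes alone, at 6.32 ± 1.18. That value of miR-122-5p came from 1 of its 2 probes, and its sum over both probes was 2.4 in KPC-exosomes. At the bound it was 2.64-fold lower in KPC-exosomes before normalization, and after it no bound could be given. Of 6 miRNAs of blood and serum 5 had a signal on each array, beside 67.4% of the 1077 miRNAs. Their signals summed before normalization to 302 in KPC-exosomes and 662 in MPDC-exosomes. miR-142a-3p alone was called higher in KPC-exosomes, at 188 ± 14 against 29.1 ± 2.59, a call made for 31.5% of the 1077 miRNAs. miR-144-3p of that list was detected on neither array.

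The labelled tissue was checked against 5 pancreas miRNAs, a list drawn up for pancreas and not for duct cells. Of these, miR-216a-5p, miR-216b-5p and miR-375-3p were detected on neither array. miR-217-5p was found in KPC-exosomes alone, at 60.9, and miR-148a-3p in MPDC-exosomes alone, at 1190. MPDC-exosomes also held 5 miRNAs known from embryonic stem cells, miR-291a-3p to miR-295-3p, at 65544 to 135570, beside 82.4 to 210 in KPC-exosomes. Each array thus lacked 4 of the 5 pancreas miRNAs, where 41% of all 1881 miRNAs were detected in KPC-exosomes and 54.8% in MPDC-exosomes. In KPC-exosomes 5 of the 7 epithelial miRNAs were detected, with a summed signal of 98.8 beside 429230 for all miRNAs. In MPDC-exosomes all 7 were, with 1781 beside 1406240, which is under each of the 5 embryonic stem cell miRNAs. These markers thus do not establish the labelled cell types, and the arrays are called by their labels throughout.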

How the data were processed

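KPC-exosomes and MPDC-exosomes were measured on 1 Agilent 1-colour miRNA array each, with no batch to separate. The authors deposited Feature Extraction 10.7.1.1 output per the file headers (the submitters' processing notes name 9.1), whose intensities and errors are background-subtracted, and log2 values normalized in GeneSpring by a method not given in the sources used here. The labels describe a kit that amplifies RNA, the methods labelled RNA on a miRNA chip.

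Total probe signals above 3 errors were summed per miRNA, set to 0.1 where there was none, log2-transformed and quantile normalized with 21 control features, which matched the deposited log2 values within 1.11e-05. A bound set an undetected signal to the lowest detected signal of its array, the miRNA's own sum over all probes or its sum over the probes detected on the other array, whichever was highest. Such a bound is no strict limit, since a probe counts as undetected up to 3 errors. The call rule was that of the methods. How precise a value is depends on having 1 array per group. Members and lists were chosen with earlier results of these data known. All 8 members, their other arms, miRNAs of the same seed, the p53 and marker lists and the 2 nearest miRNAs per member were named. There were 17 other settings tried, and 1 chosen after seeing the data. The normalization was tested on simulated data made from the MPDC array alone. That test did not cover arrays that differ in the miRNAs detected, as these did. Python 3.11.15, numpy 2.4.6, pandas 2.3.3, matplotlib 3.10.9, and R 4.3.3 with limma 3.58.1 for the normexp alternative were used. RT-qPCR was not analysed here, and part of the genotype of the KPC mice is not reported here.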

Additional observations from a re-analysis of the deposited data

How the results depend on the processing

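Of 83 values of single members under other settings, none reversed, 47 moved by at most 2 scanner errors and 36 by more. Part of the 47 could not move. The deposited values match the main setting within 1.11e-05. A floor of 1 and the bound act only on undetected signals, so they leave miR-34a-5p, miR-192-5p and miR-194-5p as they were. The median difference of the 3 members detected on both arrays, 3.69 with quantile normalization, was 1.96 where the spike-in controls set the scale and 1.99 where nothing did. The 4 members called lower became 1 with normexp background correction, 1 when detection on both arrays was required and 2 at a 4-fold threshold. Under normexp with its offset of 50, miR-34a-5p had -1.34 while miR-34b-5p, miR-34c-5p and miR-34c-3p came to -0.85, -0.72 and -0.10. The 2 members called higher were 3 when a probe needed 2 errors in place of 3, through miR-215-5p. Feature Extraction's own total per miRNA, an alternative chosen after seeing the data, gave -7.83 for miR-34c-3p. No paired analysis was possible because there was 1 array per group, and leaving out a replicate was not possible for the same reason. Signals of a few units, such as those of miR-34c-3p, are near the detection limit.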
